A study of Mus musculus with 2 samples.

Results

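The mitochondrial carriers of the Slc25 family were taken as the protein-coding genes of the mouse GENCODE annotation whose symbol is Slc25a followed by a number, on chromosomes 1 to 19. This gave 43 genes of 20780 protein-coding genes on those chromosomes, and 4 further carriers on the X chromosome (Slc25a5, Slc25a14, Slc25a43 and Slc25a53) were left out by that rule. Trimethylation of histone H3 at lysine 36 (H3K36me3) was mapped by chromatin immunoprecipitation and sequencing in macrophages grown from the bone marrow of C57BL/6J mice, and left without a stimulus. There was a single group, of 2 biological replicates, and no other condition. Each library was made from 10 ng of DNA with fragments of 350 to 480 bp, and sex and age were given as not collected. The labels name a biosample for each replicate but the same donor for both, so their spread may be technical. The deposited lists of peaks hold no read counts, so the depth was unknown, no test was possible, and where a carrier had no peak the mark was not detected, which does not show that it was absent.

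Carriers of this family sit in the inner mitochondrial membrane, with a few members in other membranes, and exchange metabolites, nucleotides, cofactors and inorganic ions between the cytosol and the mitochondrial matrix. They are encoded in the nucleus, made in the cytosol and brought in through import complexes of both membranes. Each carrier is built of tandem repeats of a similar fold, and the repeats typically carry a signature of proline, any residue, an acidic residue, 2 further residues of any kind and a basic residue. H3K36me3 is laid down in the wake of elongating RNA polymerase II, so it lies along the bodies of transcribed genes and is low at their starts. In macrophages the family is known for the citrate export, the aspartate and glutamate exchange and the phosphate and adenine nucleotide exchange that tie mitochondrial respiration to cytosolic metabolism.

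The signature was used here to show which coding sequence of a carrier lay under the mark. Each line gives 120 bases of the reference genome (GRCm38, the same assembly as mm10) around 1 signature, read along the gene from 5′ to 3′, with the 18 bases of the signature codons in capitals. Signatures were numbered from the start of the protein by the matches found, so the number need not be that of the repeat. Slc25a44 had signature 1 only, 62.3% of the way along its body. In Slc25a44 and Slc25a25 the whole 120 bases lay under peaks in both replicates, in signature 3 of Slc25a4 in replicate 2 only, and in signature 1 of Slc25a4 and signature 3 of Slc25a31 in neither.
Slc25a44 signature 1, chr3:88415949-88416068, minus strand: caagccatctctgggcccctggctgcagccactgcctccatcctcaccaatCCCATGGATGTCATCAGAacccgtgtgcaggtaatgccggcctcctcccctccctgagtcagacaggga
Slc25a25 signature 1, chr2:32419009-32419128, minus strand: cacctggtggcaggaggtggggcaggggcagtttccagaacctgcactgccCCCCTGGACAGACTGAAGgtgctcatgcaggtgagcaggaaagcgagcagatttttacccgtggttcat
Slc25a4 signature 3, chr8:46208381-46208500, minus strand: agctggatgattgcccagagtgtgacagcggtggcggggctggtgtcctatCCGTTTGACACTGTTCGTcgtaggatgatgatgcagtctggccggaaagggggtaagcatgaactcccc
Slc25a4 signature 1, chr8:46210773-46210892, minus strand: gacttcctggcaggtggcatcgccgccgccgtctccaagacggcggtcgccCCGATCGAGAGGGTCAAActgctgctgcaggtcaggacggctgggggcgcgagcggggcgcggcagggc
Slc25a31 signature 3, chr3:40722665-40722784, plus strand: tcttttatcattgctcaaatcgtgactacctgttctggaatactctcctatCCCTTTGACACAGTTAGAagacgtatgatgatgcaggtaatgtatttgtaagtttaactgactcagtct

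The cover of a gene was measured as the percent of its body, from annotated start to annotated end, that lay under peaks of a replicate. Only 3 of the 43 carriers (6.98%) reached 20% in both replicates, against 1669 of all coding genes (8.03%), a share close to the background. In replicate 1 alone the count was the same 3 carriers, beside 8.06% of all genes. In replicate 2 alone 16 carriers (37.2%) reached 20%, beside 24.6% of all genes. No peak was found in either replicate over 15 carriers (34.9%), beside 59.8% of all genes, and the other 12 had peaks that stayed under 20%. Over the 43 carriers the median cover was 0% in replicate 1 and 11.7% in replicate 2, while over all coding genes it was 0% in both. Among genes with any peak the carriers were not the more covered ones: the 28 carriers with a peak had medians of 4.61% and 23.0%, and the 8363 coding genes with a peak had 6.48% and 27.1%.

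The replicates differed widely. Replicate 1 had 45 peaks over 16 carriers, 37.5 kb in all, and replicate 2 had 115 peaks over 28 carriers, 137 kb in all. Every carrier with a peak in replicate 1 also had one in replicate 2, and 12 had one in replicate 2 only. All 28 had the higher cover in replicate 2, and among all coding genes with a peak 8202 were higher there and 159 in replicate 1. Of the carrier bases covered in replicate 1, 85.0% were covered in replicate 2 too. The list of replicate 1 was also the shorter over the genome, with 32098 peaks against 58505. As a check of the label, 11 of 12 macrophage genes reached 20% in replicate 2 (7 of them in both replicates, with Cd14 bare), against 0 of 8 T cell genes, 1 of 6 B cell genes (Blnk), 1 of 6 neutrophil genes (Csf3r), 0 of 6 fibroblast genes and 0 of 6 erythroid and megakaryocyte genes.

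**Figure D1:**
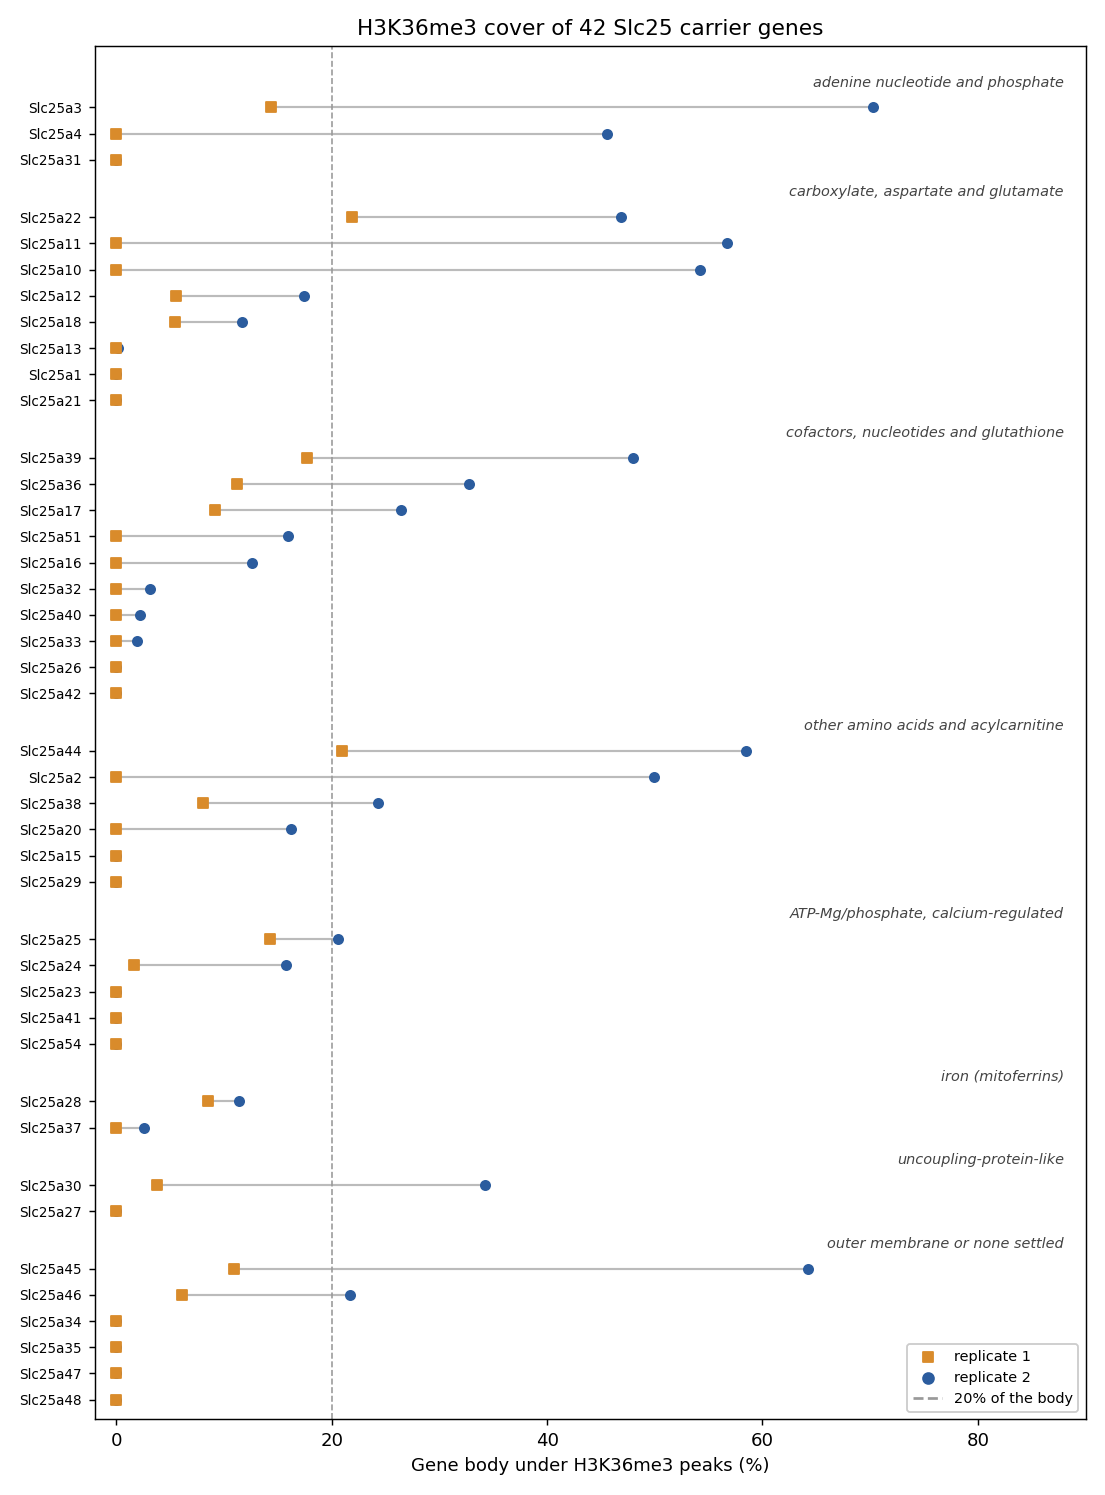
Percent of the gene body under H3K36me3 peaks (x axis) for 42 carriers (y axis), grouped by substrate, with replicate 1 as squares and replicate 2 as circles joined by a line. Slc25a22 and Slc25a44 have their squares right of the dashed line at 20%, 15 of the carriers drawn have their circle right of it, and 15 have both symbols at 0.

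Of the carriers that serve oxidative phosphorylation, the phosphate carrier Slc25a3 was the most covered gene of the family in replicate 2. It was under peaks over 14.4% of its 7.49 kb in replicate 1 and 70.3% in replicate 2. Its cover began 1.76 kb from the start in replicate 2 and ran to 0.18 kb before the end. Slc25a4, the adenine nucleotide translocase of heart and muscle that is also made in other tissues, had no peak in replicate 1 and 45.6% of its body covered in replicate 2. Slc25a31, the translocase known from testis, had no peak in either replicate. The ranges of Slc25a4 and Slc25a31 over the replicates overlapped, because both stood at 0 in replicate 1. Slc25a5, the more widely expressed translocase, lies on the X chromosome and had no peak in either replicate.

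Among the 8 carriers of carboxylates, aspartate and glutamate, 3 reached 20% in replicate 2, beside 24.6% of all coding genes. The substrate groups hold few genes, and no test was made of their counts. Slc25a22, a glutamate carrier, was covered over 21.9% and 46.8% of its body in replicates 1 and 2. Slc25a18, the other glutamate carrier, was covered over 5.48% and 11.7%, and the ranges of this pair did not overlap. The peaks of Slc25a18 lay at its 3′ end, where it runs into the convergent gene Atp6v1e1, a subunit of the vacuolar proton pump covered over 23.5% and 64.7%. With bases within 2 kb of another coding gene left out, Slc25a18 had 0% and 2.77%, while Slc25a22 was still above 20% in both.

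The 2-oxoglutarate carrier Slc25a11 and the dicarboxylate carrier Slc25a10 had no peak in replicate 1 and 56.7% and 54.2% in replicate 2. Together with Slc25a3 they had the largest gaps between replicates of the family, 56.7, 54.2 and 55.9 percentage points, and no carrier had a gap in the other direction. Slc25a11 overlaps Rnf167 over 7.46% of its body. Without the shared bases its replicate 2 cover was 61.3%.

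The aspartate and glutamate exchangers of the malate-aspartate shuttle, Slc25a12 (aralar) and Slc25a13 (citrin), are both long genes. Slc25a12, of 96.7 kb, was covered over 5.51% and 17.5% by 6 and 16 peaks. In Slc25a13, of 176 kb, a single peak of 248 bp in replicate 2 made up 0.141% of the body, and replicate 1 had none. The citrate carrier Slc25a1, which supplies cytosolic acetyl-CoA, and the oxodicarboxylate carrier Slc25a21 had no peak in either replicate.

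Carriers of other amino acids and of acylcarnitine were 6, and 3 of them reached 20% in replicate 2, beside 24.6% of all coding genes. Among these 3 was Slc25a2, which shares 100% of its bases with other coding genes. Slc25a44, which carries branched-chain amino acids, was covered over 21.0% of its body in replicate 1 and 58.5% in replicate 2. Its neighbour Pmf1 at 0.17 kb had no peak. Slc25a38, the glycine carrier that supplies heme synthesis, had 8.06% and 24.3%. The carnitine and acylcarnitine exchanger Slc25a20 had 0% and 16.2%.

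The ornithine carriers Slc25a15 and Slc25a2 read differently. Slc25a15, the widely used ornithine carrier of the urea cycle, had no peak in either replicate. Slc25a2, which has a single exon, had 0% and 49.9%. It lies wholly inside 3 other coding records of the protocadherin region, and the 1 peak that touched it extended past its 5′ end, with 58.8% of its bases inside the gene. It therefore has no value once bases shared with other coding genes are left out. Slc25a29, a carrier of basic amino acids, had no peak.

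Of the 11 carriers of cofactors, nucleotides and glutathione, 4 reached 20% in replicate 2, beside 24.6% of all coding genes. Slc25a39, which imports glutathione, had 17.7% and 48.0%, the highest replicate 1 value under the threshold. Its relative Slc25a40 had 0% and 2.16%, so the ranges of the pair did not overlap. With bases within 2 kb of another coding gene left out Slc25a39 had 0% and 23.9% and Slc25a40 0% and 2.30%, and the ranges then overlapped at 0. The neighbouring Rundc3a had 0% and 0.011%. Of the pyrimidine nucleotide carriers, Slc25a36 had 11.2% and 32.7% and Slc25a33 had 0% and 1.88%, again without overlap.

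Slc25a17, which carries coenzyme A and other cofactors into peroxisomes, had 9.13% and 26.4%, and one of its peaks had the highest enrichment of any carrier peak in each replicate (4.07 and 6.77 as given by the authors' caller). The mitochondrial NAD importer Slc25a51 had 0% and 15.9%. Of the coenzyme A related carriers, Slc25a16 had 0% and 12.6% and Slc25a42 had no peak, with overlapping ranges. Slc25a32, a folate and flavin carrier, had 3.12% in replicate 2 only. Slc25a26, which imports S-adenosylmethionine, had no peak.

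Of the 5 carriers of ATP-Mg and phosphate, Slc25a25 had 14.2% and 20.6%, and its relative Slc25a23 had no peak in either replicate. Slc25a24 had 1.64% and 15.8%, while the neighbouring Slc25a54 had no peak, and neither pair had overlapping ranges. Slc25a41 was bare too, although Khsrp, 1.25 kb away, was covered over 29.4% and 61.3%.

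Both mitoferrins, which bring iron to the matrix for heme and iron-sulfur clusters, had peaks but stayed under 20%. Slc25a28 (mitoferrin 2, the widely expressed form) had 8.48% and 11.4%, and Slc25a37 (mitoferrin 1, known from erythroid cells) had 0% and 2.57%. Their ranges did not overlap. The cover of Slc25a28 was 1 peak in each replicate at the 3′ end of the gene.

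Of the uncoupling-protein-like carriers, Slc25a30 had 3.74% and 34.2%, and Slc25a27, known from brain, had no peak. Among 6 carriers of the outer membrane or without a settled substrate, Slc25a45 had 10.9% and 64.2%. Slc25a46, an outer membrane protein of mitochondrial fission, had 6.07% and 21.7%. The other 4 (Slc25a34, Slc25a35, Slc25a47 and Slc25a48) had no peak. Of all 15 bare carriers, 4 lay within 5 kb of a gene at 20% or more in replicate 2: Slc25a34, Slc25a41, Slc25a42 and Slc25a47. Only overlapping coding genes and the nearest one on each side were looked at, and the count was not made for other genes.

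Of 12 pairs of related carriers, 8 had ranges over the replicates that did not overlap, with the same order in both, and 4 overlapped (Slc25a4 and Slc25a31, Slc25a16 and Slc25a42, Slc25a2 and Slc25a15, Slc25a10 and Slc25a11). In each of these 4 both genes stood at 0 in replicate 1. In each of the 8 except Slc25a18 and Slc25a22, 1 of the genes had no peak in replicate 1. Lengths within pairs were not matched, and the count of 8 was not set beside a share for other pairs of coding genes. The count was 5 with only peaks of −log10 q of at least 5, where Slc25a18 and Slc25a22, Slc25a33 and Slc25a36, and Slc25a39 and Slc25a40 overlapped. It was 7 with only peaks of enrichment of at least 3, where Slc25a39 and Slc25a40 overlapped, and 7 over exon bases, where Slc25a18 and Slc25a22 did. Without bases within 2 kb of another coding gene it was 7 of the 11 pairs with a value.

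**Figure D2:**
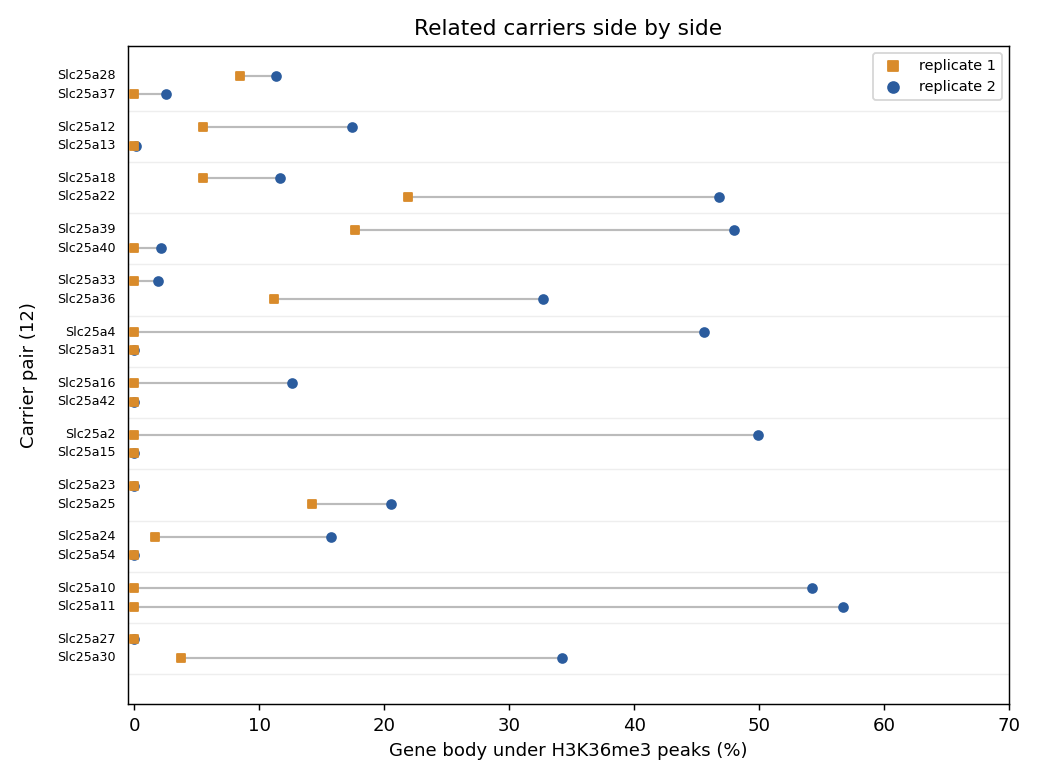
Percent of the gene body under H3K36me3 peaks (x axis) for both genes of 12 pairs of related carriers, with replicate 1 as squares and replicate 2 as circles. In 8 pairs the lines of the 2 genes do not overlap, as in Slc25a12 (5.51% and 17.5%) and Slc25a13 (0% and 0.141%).

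The peaks lay toward the 3′ side of most carriers. With each body split into 10 equal bins, no carrier had a covered base in the first bin in replicate 1, and in replicate 2 only Slc25a2 and Slc25a12 did. Over the carriers with a peak, the last bin was the most covered, at a mean of 29.1% in replicate 1 (16 carriers) and 48.7% in replicate 2 (28 carriers). The second part of the body, bins 6 to 10, held more cover than the first in 12 of 16 carriers in replicate 1 and in 25 of 28 in replicate 2. The 3 exceptions in replicate 2 were Slc25a2, Slc25a40 and Slc25a46, and the 4 in replicate 1 included Slc25a36, Slc25a45 and Slc25a46. The 3 carriers at 20% in both replicates had another shape, with the highest mean in bin 6 (60.3% in replicate 1 and 98.5% in replicate 2) and 0% and 48.1% in the last bin. Over 1594 coding genes of at least 5 kb that reached 20% in both replicates, the mean was 1.15% and 4.24% in the first bin. It was highest in bin 8 (48.4% and 81.0%) and was 36.8% and 69.0% in the last. A lean to the 3′ side was thus seen there too, in a set picked by other rules than the carriers with a peak. The counts of 12 of 16 and 25 of 28 were not made for all coding genes.

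The lean toward the 3′ side was strong in some carriers and missing in others. In Slc25a25 the peaks of replicate 2 began 29.3 kb from the start of a 37.0 kb gene and ran to its end. In Slc25a46 they ended 26.8 kb before the annotated 3′ end. The RefSeq record of Slc25a46 is 30.4 kb long against 53.8 kb in GENCODE, and over the RefSeq extent its cover was 10.8% and 38.4%. None of the 250-base windows before the RefSeq start of 32 carriers had a base under a peak in either replicate. Of those 32 carriers, 11 had no peak at all. Slc25a2, whose replicate 2 peak extended past its 5′ end, was not among the 32. The same count was not made for all promoters.

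**Figure D3:**
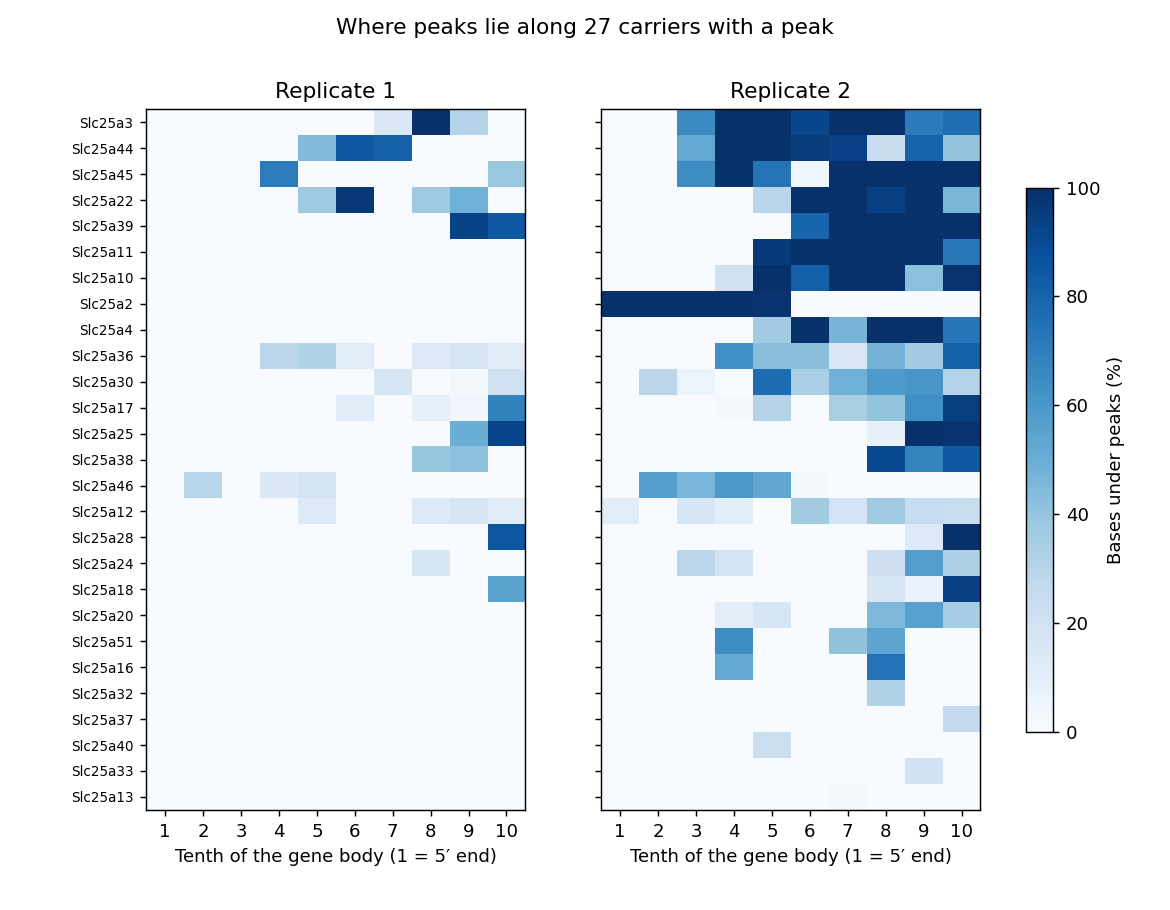
Percent of bases under peaks (colour, 0 to 100) in each of 10 equal bins along the gene body (x axis, bin 1 at the 5′ end) for 27 carriers with a peak (y axis, ordered by mean cover), replicate 1 left and replicate 2 right. The first bin is empty in replicate 1, the last bin is filled in many carriers in both, and Slc25a2 and Slc25a46 have their replicate 2 cover in the 5′ part.

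In most carriers with a peak, the coding bases were more often under peaks than the body as a whole. The same comparison was not made for all coding genes. Over exon bases, the share at 20% in both replicates was higher for all coding genes too, at 13.6% against 8.03% over whole bodies. Of the 16 carriers with a peak in replicate 1, coding cover was above body cover in 14 and below it in 2, Slc25a44 among them. Of the 28 in replicate 2 it was above in 23 and below in 5 (Slc25a13, Slc25a16, Slc25a32, Slc25a36 and Slc25a40). In Slc25a44 the coding bases were covered over 12.8% and 95.6%, and in Slc25a22 over 58.2% and 93.4%. In Slc25a51 peaks covered 15.9% of the body in replicate 2 but 100% of its coding bases. Slc25a25 had 59.7% and 83.3% of its coding bases covered, with 14.2% and 20.6% of its body, and Slc25a28 had 47.2% in both replicates. At 20% or more of the coding bases in both replicates there were 9 carriers (20.9%, beside 16.7% of 20695 coding genes with a coding transcript): Slc25a3, Slc25a12, Slc25a17, Slc25a22, Slc25a25, Slc25a28, Slc25a39, Slc25a45 and Slc25a46.

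**Figure D4:**
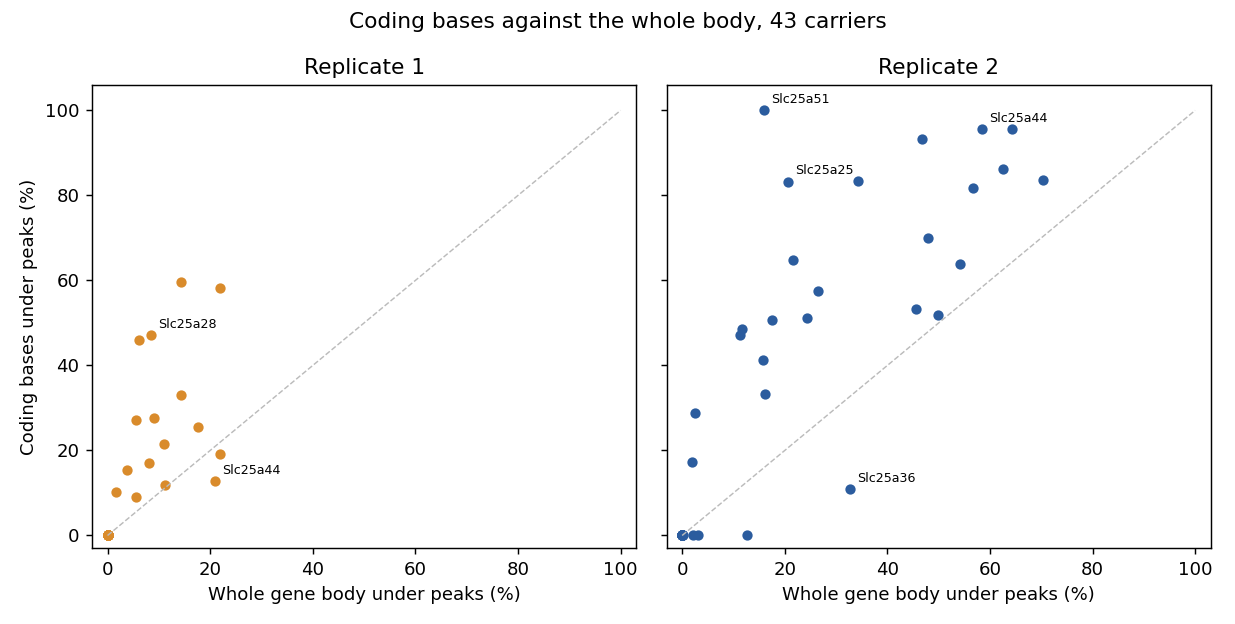
Percent of coding bases under peaks (y axis) against percent of the whole gene body under peaks (x axis) for the 43 carriers, replicate 1 left and replicate 2 right, with a dashed line where both are equal. Points lie above the line for 14 carriers in replicate 1 and 23 in replicate 2, and Slc25a51 stands at 15.9% and 100% in replicate 2.

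Of the signatures, the third was the one most often under peaks, but it also lay farthest toward the 3′ side. Other coding bases at like positions were not compared, and the counts in replicate 1 were small and did not rise steadily along the body. The pattern was found 3 times in 25 carriers, 2 times in 11, once in 5 and not at all in 2 (Slc25a46 and Slc25a51). In the 25, signatures 1, 2 and 3 lay at medians of 29.8%, 67.9% and 85.1% of the way along the body. All 18 bases were under peaks in 2, 1 and 4 of the 25 in replicate 1 and in 4, 8 and 11 in replicate 2. The windows printed for Slc25a4 show this order within 1 gene: in replicate 2 the window of signature 1 had 0 of 120 bases covered and that of signature 3 had 120. Slc25a31, whose signatures also number 3, had none covered.

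By length, the share of carriers at 20% in replicate 2 was above that of all coding genes under 10 kb and below it from 10 to 50 kb. Under 5 kb, 4 of 6 carriers (66.7%) reached 20% in replicate 2, against 10.3% of 3768 coding genes. Those 4 were Slc25a2, Slc25a4, Slc25a11 and Slc25a39, of which only Slc25a39 had a peak in replicate 1. From 5 to 10 kb it was 4 of 6 carriers (Slc25a3, Slc25a10, Slc25a22 and Slc25a45) against 23.5% of genes. From 10 to 25 kb it was 3 of 13 (Slc25a38 and Slc25a44 among them) against 35.3%, and from 25 to 50 kb 4 of 13 (Slc25a17, Slc25a25, Slc25a30 and Slc25a36) against 34.6%. At 50 kb or more it was 1 of 5 (Slc25a46) against 17.5%. At 20% in both replicates the classes did not follow that split: 0 of 6 carriers under 5 kb (1.99% of genes), 1 of 6 from 5 to 10 kb (7.73%), 2 of 13 from 10 to 25 kb (13.6%), 0 of 13 from 25 to 50 kb (12.1%) and 0 of 5 above (3.99%). These are counts of few genes, and no test was made of them.

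**Figure D5:**
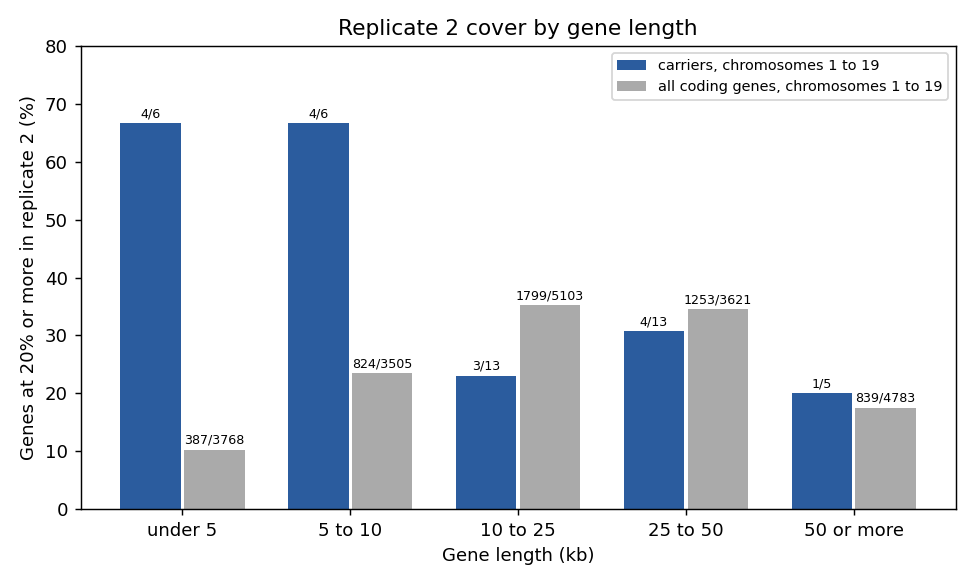
Percent of genes with at least 20% of the body under peaks in replicate 2 (y axis) by gene length in kb (x axis), for the carriers and for all coding genes of chromosomes 1 to 19, with the counts above the bars. The carriers are at 66.7% in both classes under 10 kb, where all genes are at 10.3% and 23.5%, and at 23.1% against 35.3% from 10 to 25 kb.

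Proteins of the same fold under other names were Ucp1, Ucp2, Ucp3, Mtch1 and Mtch2. The uncoupling protein Ucp2, known from immune cells, had 20.2% and 51.4% and the outer membrane protein Mtch1 had 5.66% and 61.8%. Ucp1 and Ucp3, known from brown fat and muscle, had no peak. Of 15 genes of the import route that carriers take, 5 reached 20% in replicate 2, none in both, and 7 had no peak. The shares of all coding genes were 24.6%, 8.03% and 59.8%. The import genes had a median length of 3.58 kb, against 17.6 kb over all coding genes, and no test was made. The receptors Tomm20 (13.9% and 44.2%) and Tomm70a (18.2% and 30.9%) were the most covered, and the small chaperones Timm10 and Timm10b were among the bare ones. Of 16 other mitochondrial transporters 5 reached 20% in replicate 2 and 1 did in both, beside 24.6% and 8.03% of all coding genes. That 1 was the outer membrane channel Vdac2 (22.6% and 51.6%). It was followed by the ion exchanger Letm1 (14.4% and 44.3%), and Sfxn2 and Sfxn5 of the sideroflexins had no peak, nor did the calcium uniporter Mcu.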

How the data were processed

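H3K36me3 ChIP-seq of 2 replicates of unstimulated mouse macrophages was analysed from the authors' peak lists: 1 for each replicate, 1 pooled and 1 of replicated peaks. Per the file headers the per-replicate lists are pseudoreplicated peaks on mm10. For the aligner and the peak caller, no name is given in the sources used here. The deposited enrichment of each peak is a ratio, or fold, over the background of the authors' caller, and the deposited −log10 q is theirs as well. Both were used only to describe or filter peaks within a list. The lists give no counts, so depth is unknown and carries no interval. Their number and length move with depth and with the immunoprecipitation.

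Gene bodies came from GENCODE M21 (GRCm38), with the longest record where a symbol occurs more than once. Peaks of a list were merged, and the percent of bases under them was computed with Python 3.11.15, numpy 2.4.6 and pandas 2.3.3 in code tested on simulated intervals. A carrier was counted as covered at 20% of its body. Coding bases and signatures were read from 1 coding transcript per gene with pysam 0.24.0. Promoter positions came from RefSeq (GRCm38.p6), which matched 32 of the 43 carriers.

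Values in both replicates were given for carriers at 20% in both, for both genes of each pair and for the 3 largest gaps in each direction. From each list outside the family the 2 most and 2 least covered genes were taken, with ties by symbol. Values of 1 carrier are not reported here. Other genes named were chosen after their values were seen. The members, substrate groups, pairs and lists were chosen with earlier results of these data known. Of the listed symbols, Slc25a52 had no coding record. Alternatives were stricter peaks, the combined lists, other thresholds, each replicate alone, other parts of the body and the X-linked carriers added.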

Additional observations from a re-analysis of the deposited data

Results flagged for a closer look

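Slc25a1, the citrate carrier, had no peak in either replicate's own list, yet 15.8% of its body lay under the authors' pooled list and 39.9% under their replicated list, neither of which entered the counts of carriers. The pooled list held 1 peak in the gene and the replicated list 2. The other 14 carriers that were bare in both replicates had no peak in these lists either.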

How the results depend on the processing

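The count of carriers at 20% in both replicates rested on replicate 1, where Slc25a44 stood at 21.0% and Slc25a22 at 21.9%. It was 3, beside 8.03% of all coding genes. It became 0 with only peaks of −log10 q of at least 5 (1.52% of genes) and 1 (Slc25a22) with only peaks of enrichment of at least 3 (5.12%). The count in both replicates was 8, or 18.6%, at a threshold of 10% of the body (16.0%) and 0 at 50% (0.433%). It was 7, or 16.3%, over exon bases only (13.6%) and 5, or 11.6%, over bins 6 to 10 on the 3′ side of the body (12.7%). In the authors' pooled list 17 carriers, or 39.5%, reached 20% (26.4% of genes), and in their replicated list 17 did (25.3%). Each of these is a single combined list, so the 17 is not a count in both replicates. Leaving out each replicate in turn gave 3 to 16, with 16 from replicate 2 alone. Slc25a44 was lost over exons. The count stayed at 3, with the same genes, without bases of other coding genes and, as alternatives chosen after seeing the data, with RefSeq extents or without bases within 2 kb of another coding gene. The count of 16 in replicate 2 became 6 (14.0%) at 50%, beside 8.66% of genes, and ranged from 14 to 23 under the others. The median cover of the carriers, 7.95% as the mean of the replicates, ranged from 0% to 16.2%. Of 250 values of the carriers with a peak under alternatives that keep both replicates, 215 moved by no more than the spread of the replicates and 35 by more. That spread was the standard deviation of the 2 replicate values, which is wide in carriers with a large gap between replicates. The 215 therefore do not show that the values are robust. The alternatives for the pairs of carriers were also chosen after seeing the data. No paired analysis was possible because there is only 1 group. The unknown depth limits every bare carrier.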
